A study of Mus musculus with 2 samples.

Results

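The 6 genes described here are single-copy members of the mouse let-7 microRNA family: Mirlet7g, Mirlet7b, Mirlet7d, Mirlet7i, Mirlet7e and Mir98. They were taken by gene symbol from the 2202 microRNA genes counted in each library, as let-7 genes whose mature 5p microRNA comes from 1 annotated hairpin. Mir7j and Mir7k, whose microRNAs are named let-7j and let-7k, are not among the 6. All 6 had counts far above the 10 counts used to call a gene detected. The data are microRNA-seq libraries made with total RNA from the adrenal glands of wild-type C57BL/6J mice supplied by The Jackson Laboratory. They form 1 group of 2, numbered biological replicate 1 and biological replicate 2, so there is no contrast between conditions. Age and developmental stage are labelled unknown, and a description of the animals as female stands beside a sex field marked as not collected. Each library has its own tissue sample but both carry the same donor identifier. Whether separate animals were used is not stated, so the tests below measure only the difference between these libraries, which may be technical.

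The adrenal gland makes steroid hormones in its cortex and catecholamines in its medulla. A microRNA gene is transcribed into a longer RNA from which a hairpin is cut. The hairpin is then cut into short RNAs from its 5p and 3p arms, and a chosen strand guides Argonaute to messenger RNAs that pair with its seed, bases 2 to 8. In let-7 the 5p arm is generally the guide. The family is known for rising as cells differentiate, for repressing growth genes such as Hmga2 and Ras genes, and for being held back in stem and embryonic cells by the RNA-binding protein LIN28.

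The mature 5p sequences are shown because the members share their seed and are told apart by a few bases outside it, which decides how a short read can be assigned. They are from RefSeq (GRCm38.p6, the mm10 assembly), written 5′ to 3′ with the seed in capitals, and all 6 members matched that table. The first 6 lines are the 6 members and the last 3 are the family's duplicated microRNAs.
let-7g-5p: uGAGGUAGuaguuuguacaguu
let-7b-5p: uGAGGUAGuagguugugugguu
let-7d-5p: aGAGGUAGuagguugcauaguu
let-7i-5p: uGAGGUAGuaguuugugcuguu
let-7e-5p: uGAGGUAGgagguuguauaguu
miR-98-5p: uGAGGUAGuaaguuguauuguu
let-7a-5p: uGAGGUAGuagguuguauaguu
let-7c-5p: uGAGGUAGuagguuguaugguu
let-7f-5p: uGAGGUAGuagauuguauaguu

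All 6 members carried the same seed, and 14 of the 22 positions were the same in all of them. Over the 15 pairs of members, the 5p microRNAs differed at 2 to 6 positions. Substitutions are given against let-7a-5p, with positions counted from 1 at the 5′ end and the let-7a base first. Let-7e has U9G alone. Let-7g has G12U and U18C, let-7b has A17G and A19G, and miR-98 has G11A and A19U. Let-7d, the member that starts with another base, has U1A and U16C. Let-7i has G12U, A17G, U18C and A19U, and it differs from let-7g by A17G and A19U. Let-7b lies nearest to let-7c, from which it differs by A17G alone.

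Each full-length 5p microRNA of the 6 genes was found exactly in 1 of the 2202 GENCODE M21 hairpins, while let-7a-5p, let-7c-5p and let-7f-5p were each found in 2. The start of the microRNA is less specific than the whole. Read from the 5′ end, let-7d was unique among the hairpins from 9 bases and miR-98 from 11 bases. Let-7g, let-7b, let-7i and let-7e needed 17 bases. At 16 bases let-7g and let-7i matched each other's hairpin, let-7b matched 5 hairpins including those of let-7a and let-7c, and let-7e matched Mir7k. The 3p arms were more distinct, being unique from 12 bases or fewer, with at least 2 mismatches to any other hairpin. A single mismatch within the 22 bases separates let-7b from both let-7c hairpins, let-7e from both let-7a hairpins and let-7i from the hairpin of Mir7j. Only annotated hairpins were searched, and the sources used here do not give the mismatches allowed in alignment.

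**Figure D1:**
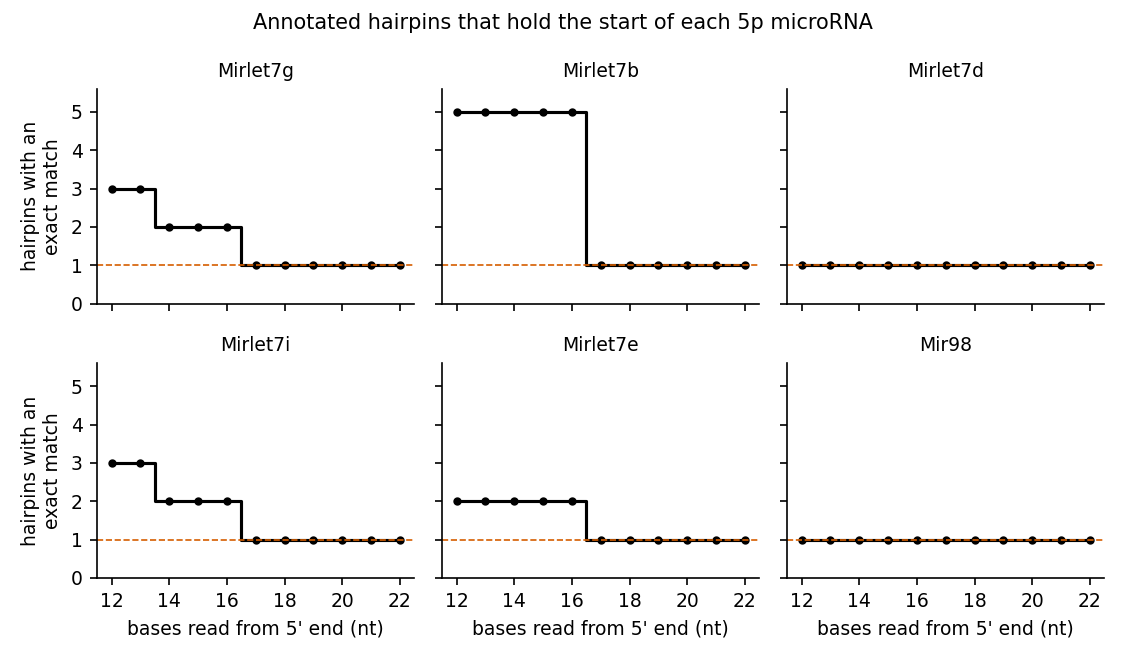
Number of annotated hairpins (y axis, of 2202) that hold an exact copy of the first bases of each 5p microRNA, against the number of bases read from its 5′ end (x axis, nt); the dashed line marks 1 hairpin. Mirlet7d and Mir98 are at 1 across the plotted range, and the other 4 members reach 1 at 17 bases.

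The libraries held 18743064 reads in replicate 1 and 14457994 reads in replicate 2. Of these, 9137907 (48.8%) and 6570375 (45.4%) fell on a microRNA gene's own strand. Levels are given as CPM, a gene's count per 1000000 of those gene counts. Reads with several alignments, 35.9% and 36.0% of the libraries, stand outside the gene counts, and how many of them came from let-7 RNAs was not tested. A likelihood-ratio chi-square of 353924 over the tested genes (425 degrees of freedom) was far above counting error. The tables are thus neither the same counts nor independent random draws from the same set of reads. The chi-square does not tell separate animals from separate preparations of the same RNA. Whether 1 library was amplified or sequenced again was not tested. For the tissue label, the neuroendocrine markers Mir375 and Mir7b had 49445 ± 1171 CPM and 3109 ± 390 CPM (SD, n = 2), Mir126a of endothelium 58001 ± 5199 CPM, Mir122 of liver 99.8 ± 40.0 CPM and Mir192 of kidney 35.0 ± 3.17 CPM. The other markers outside muscle ran from 19.1 ± 8.29 CPM for Mir486 of red cells to 14230 ± 2163 CPM for Mir143 of fibroblasts and smooth muscle. The striated muscle markers Mir206 and Mir499 had 2 and 8 counts in replicate 1 and 3 and 8 counts in replicate 2. The list holds no microRNA that defines the adrenal cortex. In whole tissue, fewer cells of a type and less of an RNA per cell cannot be told apart.

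The single-copy let-7 genes were among the genes with the highest counts. Together they held 30.8% of the gene counts in replicate 1 and 29.3% in replicate 2, a mean of 30.0% ± 1.10 (SD, n = 2). Of all reads in the libraries they held 15.0% in replicate 1 and 13.3% in replicate 2, a mean of 14.2%. Mirlet7g and Mirlet7b ranked 1 and 2 of all 2202 genes in each library. Mirlet7d ranked 9 in replicate 1 and 8 in replicate 2, Mirlet7i 10 and 9, Mirlet7e 18 and 17, and Mir98 23 and 27. Ranks and shares hold among the gene counts only, since the 6721333 and 5210526 reads with several alignments outnumber the 2815498 and 1922554 counts of the 6 genes and could raise duplicated microRNAs above them.

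Mirlet7g had 119893 CPM in replicate 1 and 105944 CPM in replicate 2. Mirlet7b had 81805 CPM in replicate 1 and 86699 CPM in replicate 2, so its range did not meet that of Mirlet7g. Both are let-7 genes with the shared seed, but Mirlet7g is alone at its locus while Mirlet7b lies beside Mirlet7c-2. Mirlet7d had 46149 CPM in replicate 1 and 39823 CPM in replicate 2. Mirlet7i had 37907 CPM and 37320 CPM, the closest pair of CPM values among the 6, with an SD of 1.10% of its mean. That depends on the scaling: with the TMM factors used below, Mirlet7b was closest, with a log2 ratio of 0.019 against 0.13 for Mirlet7i. The ranges of Mirlet7d and Mirlet7i did not overlap, although they lay only 1.14-fold apart in mean CPM. Mirlet7e had 14105 CPM in replicate 1 and 15665 CPM in replicate 2. Mir98, a let-7 family gene in spite of its name, was lowest with 8253 CPM and 7158 CPM.

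The order was the same in each library, and the ranges of neighbours in it did not overlap for any of the 5 steps. By means, Mirlet7g was 1.34-fold above Mirlet7b, Mirlet7b 1.96-fold above Mirlet7d, Mirlet7i 2.53-fold above Mirlet7e and Mirlet7e 1.93-fold above Mir98. From Mirlet7g to Mir98 the ratio was 14.5 in replicate 1 and 14.8 in replicate 2. All 6 mature 5p and all 6 mature 3p RNAs are annotated at 22 bases, but the lengths of the reads were not examined. The 5p start that is unique among the hairpins runs from 9 bases for let-7d to 17 for let-7g, let-7b, let-7i and let-7e. These lengths hold among annotated hairpins only, and the genome was not searched. Whether losses of reads to several alignments differ between members was not tested, which limits the order and these ratios. The counts are per hairpin gene and do not separate its 5p and 3p products. Divided by hairpin length, which runs from 85 to 108 bases, Mirlet7i (443 CPM per base) stood above Mirlet7d (417 CPM per base), and the rest of the order was unchanged. Hairpin length need not set the counts, since all the mature RNAs are annotated at 22 bases.

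**Figure D2:**
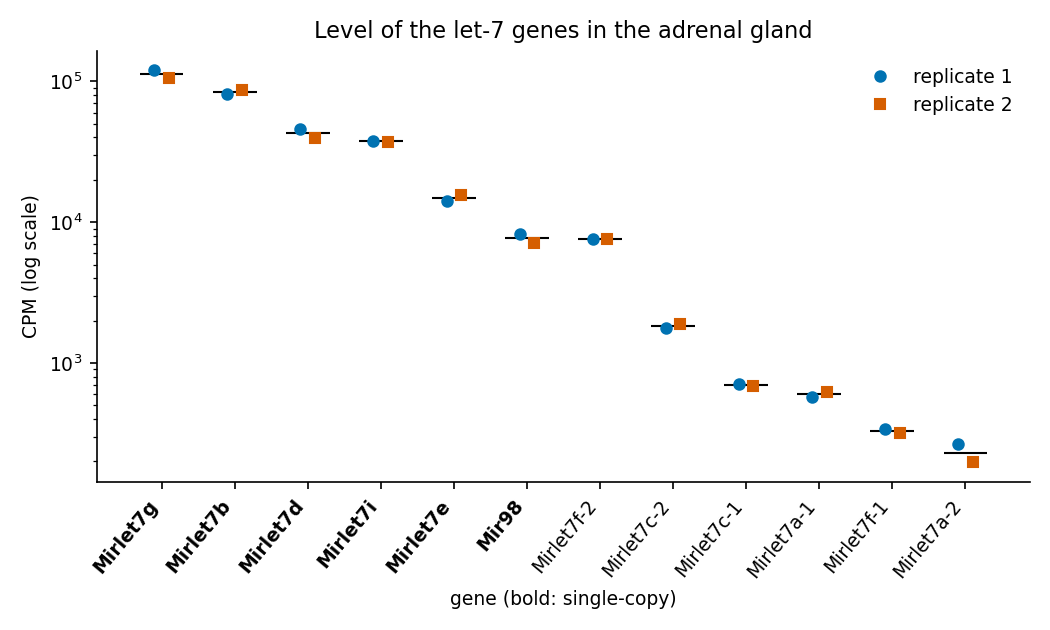
Level in CPM (log scale) of 12 let-7 genes, let-7j and let-7k left out, in replicate 1 (circles) and replicate 2 (squares). A line marks the mean, and genes with a bold name are the single-copy members. The 6 single-copy genes run from 112919 CPM (Mirlet7g) to 7706 CPM (Mir98), and of the duplicated genes only Mirlet7f-2 lies near them. Counts of the duplicated genes leave out reads with several alignments.

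The duplicated let-7 genes were counted at lower levels. Mirlet7f-2 had 7561 CPM in replicate 1 and 7573 CPM in replicate 2, inside the range of Mir98. The other 5 ran from 1831 ± 93.2 CPM for Mirlet7c-2 to 231 ± 46.7 CPM for Mirlet7a-2 (SD, n = 2). In sum the 6 single-copy genes held 96.5% of the counts of these 12 let-7 genes in replicate 1 and 96.3% in replicate 2. The duplicated genes share their 5p microRNA with another hairpin, and reads with several alignments are outside the gene counts. Their values are therefore no measure of how much let-7a, let-7c or let-7f RNA was present, and the 96.5% and 96.3% hold for the deposited gene counts only. Other genes with the let-7 seed, chosen after their values were seen, were near the limit of detection. Mir7k, whose microRNA is named let-7k, had 21 counts in replicate 1 and 10 in replicate 2, and Mir1961 had 3 and 0. Mir7j, whose microRNA is named let-7j and differs from let-7i within the seed, had 165 and 123 counts.

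With 2 libraries, profiles cannot be correlated, so likeness was taken as the nearest mean CPM outside the 6 genes. No other gene lay above Mirlet7g or between it and Mirlet7b, and the next below was Mir126a, the endothelial microRNA, at 61677 CPM in replicate 1 and 54325 CPM in replicate 2. Mirlet7d stood between Mir139 (1.11 times its mean) and Mir23a (0.979 times). Mir23a was also next above Mirlet7i, but its values of 55297 CPM and 28913 CPM spanned both members. Mirlet7i had Mir22 below it, Mirlet7e had Mir10b above and Mir143 below, and Mir98 had Mir322 above and Mirlet7f-2 below.

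The 6 genes lie on 6 chromosomes, each within an annotated transcript on its own strand (mm10, GENCODE M21). Mirlet7g (chr9:106178840-106178927, plus strand) lies in an intron of Wdr82, which encodes a subunit of histone methyltransferase complexes, with no microRNA gene within 10000 bases. Mirlet7i (chr10:122985640-122985724, minus strand) lies in an exon of the transcribed pseudogene D630033A02Rik, also with none nearby. Mirlet7b (chr15:85707319-85707403, plus strand) lies in an exon of the non-coding gene Lncppara. Mirlet7d (chr13:48536012-48536114, minus strand) lies in an exon of the non-coding gene 6720427I07Rik. Mirlet7e (chr17:17830352-17830444, plus strand) lies in an intron of Spaca6, a gene known for sperm-egg fusion. Mir98 (chrX:151913214-151913321, plus strand) lies in an intron of Huwe1, which encodes a ubiquitin ligase.

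Of the members, 4 have microRNA genes beside them on the same strand, and a ratio of counts within a library does not depend on how libraries are scaled. Mirlet7e lies 95 bases after Mir99b and 368 bases before Mir125a, in a cluster that joins let-7 to the miR-99 and miR-125 families. Mir99b had 7065 CPM in replicate 1 and 5423 CPM in replicate 2, and Mir125a had 13350 CPM and 12586 CPM. Mirlet7e was 2.00 times Mir99b in replicate 1 (95% counting interval 1.98 to 2.02) and 2.89 times in replicate 2 (2.85 to 2.92). It was 1.06 times Mir125a in replicate 1 (1.05 to 1.06) and 1.24 times in replicate 2 (1.23 to 1.26). For both ratios the intervals of the libraries did not overlap, but these intervals treat every read as independent.

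The other 3 members with neighbours lie beside duplicated let-7 genes, whose counts leave out reads with several alignments. Mirlet7b, 622 bases from Mirlet7c-2, had 46.3 times its counts in replicate 1 (45.6 to 47.1) and 45.7 times in replicate 2 (44.9 to 46.5), intervals that overlap. Mirlet7d lies 1715 bases from Mirlet7f-1 and 2065 bases from Mirlet7a-1. It had 79.9 times the counts of Mirlet7a-1 in replicate 1 (77.7 to 82.1) and 63.7 times in replicate 2 (61.7 to 65.7). Mir98 lies 786 bases from Mirlet7f-2, and the pair had near-equal counts. Their ratio was 1.09 in replicate 1 (1.08 to 1.10) and 0.945 in replicate 2 (0.933 to 0.957), so which of the pair was higher differed between the libraries.

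**Figure D3:**
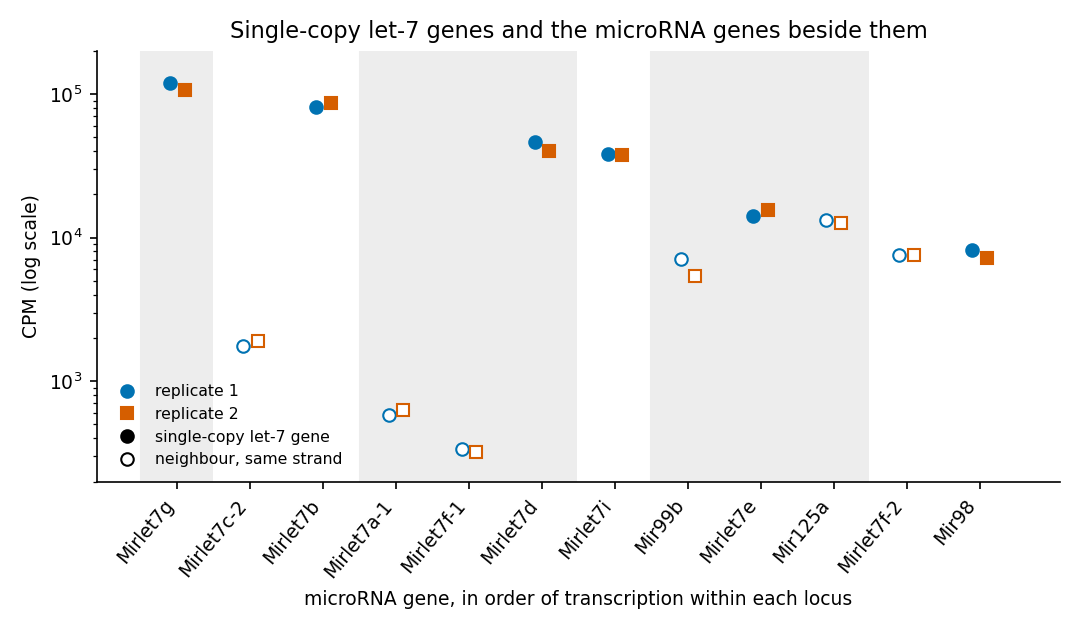
Level in CPM (log scale) of each single-copy let-7 gene (filled) and of microRNA genes within 10000 bases on the same strand (open), in replicate 1 (circles) and replicate 2 (squares); shaded and plain bands separate the 6 loci. Mirlet7e lies near its neighbours' levels and Mir98 beside that of Mirlet7f-2. Mirlet7b and Mirlet7d stand at least 45.7-fold above their neighbours in each library. Those neighbours and Mirlet7f-2 are duplicated let-7 genes, whose counts leave out reads with several alignments.

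The opposite strand holds a microRNA gene at 1 member. Gm25927 (chr17:17830343-17830459, minus strand) covers the whole of Mirlet7e, with 0 counts on its own strand in each library. In the deposited counts that ignore strand, Mirlet7e also had 0 counts in each library, against 128887 in replicate 1 and 102922 in replicate 2 on its own strand. Its level can therefore be read only from the stranded counts. Gm24111, the other opposite-strand microRNA gene within 10000 bases of a member, covers Mirlet7f-1 near Mirlet7d and also had 0 counts on its own strand. For the other 5 members the 2 columns differed by at most 17 counts.

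LIN28 is known to bind a GGAG motif in the loop of let-7 hairpins. The bases between the 5p and 3p arms of 5 members are shown because they form that loop, 5′ to 3′, with GGAG in capitals (RefSeq, GRCm38.p6).
Mirlet7g: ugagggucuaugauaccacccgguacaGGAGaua
Mirlet7b: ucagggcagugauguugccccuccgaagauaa
Mirlet7d: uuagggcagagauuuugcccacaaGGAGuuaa
Mirlet7i: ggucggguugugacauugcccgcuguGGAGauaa
Mirlet7e: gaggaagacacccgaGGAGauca
Mirlet7g, Mirlet7d, Mirlet7i and Mirlet7e held the motif 3 or 4 bases before the 3p arm, and these letters are not in the loop of Mirlet7b. It was searched on the transcribed strand only, and its matches do not overlap other matches of it. Of 644 RefSeq hairpins with both arms annotated, 52 (8.07%) held it between the arms, and with 5 loops shown no comparison with that share is made. The loop of Mirlet7e, at 23 bases, was the shortest of the 5, and the others had 32 to 34 bases.

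Within the pool of the 6 genes, Mirlet7g made up 38.9% in replicate 1 and 36.2% in replicate 2. Mirlet7b made up 26.6% and 29.6%, a difference of -3.08 percentage points (replicate 1 minus replicate 2), against 2.71 points for Mirlet7g. Mirlet7d made up 15.0% and 13.6%, Mirlet7i 12.3% and 12.8%, Mirlet7e 4.58% and 5.35%, and Mir98 2.68% and 2.45%. Mirlet7g, Mirlet7d and Mir98 thus took the larger share in replicate 1, and Mirlet7b, Mirlet7i and Mirlet7e in replicate 2. The exact 95% binomial intervals of the libraries did not overlap for any of the 6. These intervals treat every read as independent and cover counting error only. Reads without molecular identifiers are not independent molecules, so the intervals may be too narrow even for that. No test across animals is possible.

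**Figure D4:**
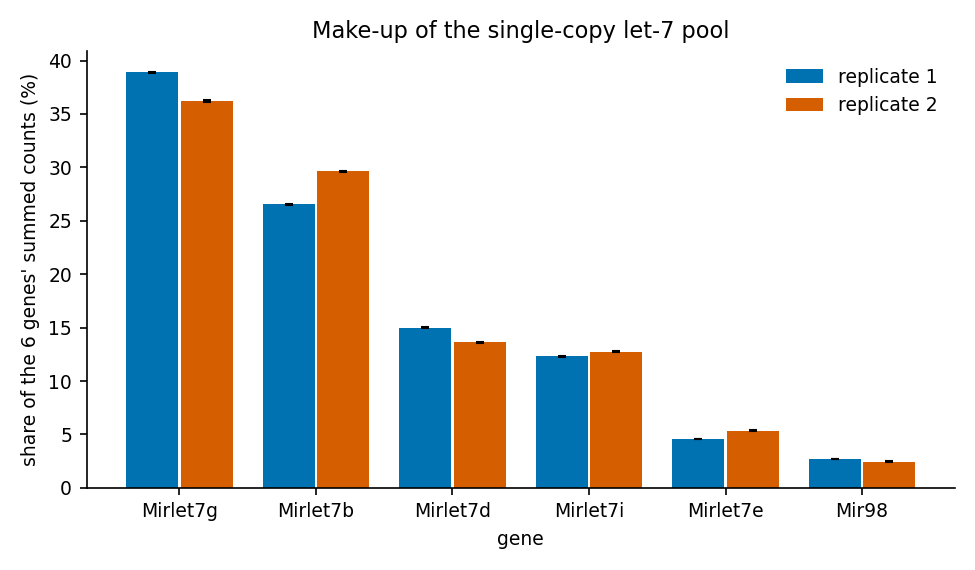
Share of the summed counts of the 6 single-copy let-7 genes held by each gene (y axis, percent) in replicate 1 and replicate 2. Error bars are exact 95% binomial intervals, which treat every read as independent and cover counting error only. Mirlet7g holds 38.9% and 36.2% and Mirlet7b 26.6% and 29.6%, with the same order in each library.

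The libraries were also compared across all genes, with TMM factors from edgeR setting the ratio each gene's counts were tested against. A positive log2 ratio means a higher level in replicate 1, and 0.5 was added to each count. Mirlet7d had a log2 ratio of 0.32 (95% counting interval 0.31 to 0.32), higher in replicate 1, as were Mir98 (0.31, 0.29 to 0.32) and Mirlet7g (0.28, 0.28 to 0.29). Mirlet7i was higher in replicate 1 by 0.13 (0.12 to 0.13), and by 0.023 when total counts set the scaling. Mirlet7e was higher in replicate 2, with a log2 ratio of -0.048 (-0.060 to -0.037), and of -0.15 by total counts. By total counts Mirlet7d had 0.21, Mir98 0.21 and Mirlet7g 0.18, so the choice of scaling moves these values by more than their counting intervals. Mirlet7b had a log2 ratio of 0.019 (0.014 to 0.024), called higher in replicate 1, but scaled by total counts it was -0.084 and called higher in replicate 2, and with DESeq2 size factors it was not called.

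In the exact binomial test (two-sided, adjusted by Benjamini-Hochberg over all tested genes), all 6 members passed the threshold of 0.05, 5 higher in replicate 1 and 1 in replicate 2. The adjusted p was 2.41e-13 for Mirlet7b and 3.85e-15 for Mirlet7e, and smaller for the other 4. Of all 426 tested genes 239 (56.1%) were called, 129 (30.3%) with the higher level in replicate 1 and 110 (25.8%) in replicate 2. When total counts set the scaling, 93 were called higher in replicate 1 and 150 in replicate 2, and the members then split 4 against 2. With TMM, 75 tested genes had a mean of at least 1000 CPM. Of these, 39 were called higher in replicate 1, 31 in replicate 2 and 5 were not called, so most genes this abundant were called. At counts this high the test calls differences of 1.01-fold, so the size is more informative than the call. The members' absolute log2 ratios ran from 0.019 to 0.32, with a median of 0.20, against a median of 0.29 over the 426 tested genes and 0.24 over the 75 of them with a mean of at least 1000 CPM. Mirlet7d, the member with the largest ratio, exceeded 52.3% of the tested genes in absolute log2 ratio, and Mirlet7b exceeded 3.29%. Of the duplicated let-7 genes, 4 were called higher in replicate 1 and 2 were not called, with absolute log2 ratios from 0.0011 to 0.52. Of Mirlet7e's neighbours, Mir99b had a log2 ratio of 0.48 and Mir125a of 0.19, both called higher in replicate 1.

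**Figure D5:**
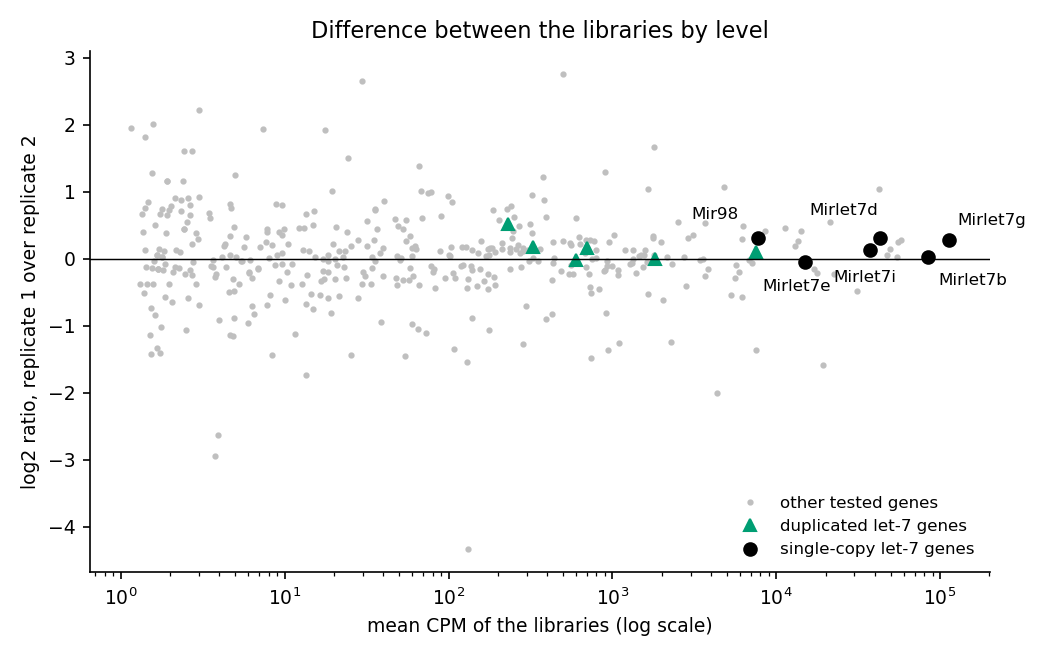
Log2 ratio of replicate 1 over replicate 2 (y axis, TMM scaling) against mean CPM (x axis, log scale) for 426 tested microRNA genes, with single-copy let-7 genes as black circles and duplicated let-7 genes as green triangles. The 6 single-copy genes lie between -0.048 and 0.32; scaled by total counts all points shift by -0.10, which takes Mirlet7b below 0.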

How the data were processed

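MicroRNA-seq of total RNA from mouse adrenal gland was available as 2 deposited tables, 1 per library, with 2202 microRNA genes. The authors deposited raw read counts made on mm10 with GENCODE M21, per the text deposited beside the tables, and the labels' protocols link an adapter-trimming document. The sources used here give neither aligner nor counter. Each table has 3 count columns without a header, taken from their values to be unstranded counts, counts on the gene's own strand (the larger stranded total) and counts on the other strand. The 4 rows that name no gene were left out of library sizes. They held 51.2% of reads in replicate 1 and 54.6% in replicate 2.

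All 2202 identifiers matched GENCODE M21. CPM is the count per 1000000 counts on the strand of the gene. Genes with at least 20 counts over both libraries were tested by an exact two-sided binomial test against TMM-scaled library sizes (from edgeR 4.0.16 in R 4.3.3), with Benjamini-Hochberg adjustment over all tested genes and a threshold of 0.05. The test knows counting error only. It was also run on simulated counts that held counting error alone, which does not show how it behaves on these libraries. No edgeR or DESeq2 model could be fitted between conditions, since there is 1 group. A 95% Clopper-Pearson interval stands beside shares and ratios. A count of 0 allows up to 3 counts, 0.328 CPM in replicate 1 and 0.457 CPM in replicate 2. Alternatives were scaling by total counts or by DESeq2 1.42.0 size factors, no filter, counts on either strand, another denominator, hairpin length and leaving out a library.

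Named genes are the 6 members, the 6 duplicated let-7 genes, microRNA genes within 10000 bases, host genes and the nearest genes in mean CPM. Tissue markers come from a separate list. Mir7k (let-7k), Mir7j (let-7j) and Mir1961, which resemble the members in sequence, were added after their values were seen. The loop of 1 member is not reported here. Members, lists and tests were chosen with earlier results of these data known.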

Additional observations from a re-analysis of the deposited data

Results flagged for a closer look

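Counts on the strand opposite the genes are outside the comparisons above. Opposite Mirlet7b there were 17 counts in replicate 1 and 8 in replicate 2, more than the 3 counts that a count of 0 allows, against 747525 and 569647 on its own strand. Opposite Gm25927 there were 128887 counts in replicate 1 and 102922 in replicate 2. Those are the counts of Mirlet7e on its own strand, which Gm25927 overlaps, so the same reads appear in the table a second time.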

How the results depend on the processing

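The summed share of the 6 genes was 14.2% of all reads in the library and 31.4% of counts on either strand, against 30.0% of gene counts on the strand of the gene. The 31.4% is not like for like, since Mirlet7e adds nothing to it. It also has a smaller denominator, with 23 genes, Mirlet7e among them, that have no counts on either strand but at least 20 on their own. On the strand of the gene the share ran from 29.3% to 30.8% with each replicate left out. The order of the members was the same with either library left out (0 places changed). It changed in 2 places when levels were divided by hairpin length, where Mirlet7i passed Mirlet7d, and in 2 places in counts on either strand, where Mirlet7e had none. Hairpin length is a weak alternative, since the mature RNAs of all 6 members are annotated at 22 bases. The log2 ratio of Mirlet7b was -0.084 scaled by total counts and 0.0055 with DESeq2 size factors (adjusted p = 0.0541), with adjusted p below 0.05 in its other alternatives. Against TMM, total counts shift every log2 ratio by -0.10. The remaining 21 member ratios under alternatives kept their direction and stayed past the threshold. Mirlet7e could not be tested in counts on either strand. The number of genes called was 243 by total counts, 235 with DESeq2 size factors, 233 of 818 with no filter and 217 of 400 on either strand. No paired analysis was possible because the study has 1 group. Depth did not limit the members, but 2 libraries allow no test across animals.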
